A study of Mus musculus with 16 samples.

Results

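The genes described here are 10 genes of the NF-κB pathway, taken by symbol from the 22298 mouse genes counted in 16 abdominal tumors. They are the 5 genes of the DNA-binding subunits (Nfkb1, Nfkb2, Rela, Relb and Rel), the negative feedback targets Nfkbia and Tnfaip3, the ligand gene Tnf, the survival target Birc3 and the adhesion target Icam1. All 10 were found, and all 10 passed the filter of at least 10 counts over the tumors. The tumors grew in wild-type 615-line mice, 6 weeks old and matched for sex, after 500000 MFC cells, a mouse forestomach carcinoma line used as a gastric cancer model, had been injected into the peritoneal cavity. The vehicle group received PBS and the IL-33 treatment group 20 μg/kg IL-33 by the same route every other day, with 8 tumors in each group. The time of collection for sequencing was not given in the sources used here. The mouse model had 4 or 5 mice per group, and the sources do not say which tumors came from the same mouse, so p-values measure the spread between these tumors. Total counts lay between 14139268 and 24290794 per tumor.

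NF-κB is a family of dimeric transcription factors that inhibitors of the IκB family hold in the cytoplasm. The IKK kinases mark IκB for breakdown when receptors of the TNF or IL-1 families are engaged, and ST2, the receptor of IL-33, signals to IKK through MyD88, IRAK kinases and TRAF6. Freed dimers switch on inflammatory genes such as Tnf and Icam1 and also genes of their own inhibitors, among them Nfkbia and Tnfaip3, which closes a feedback loop. The comparison of the groups asks whether transcripts of this pathway differ between tumors of mice given PBS and tumors of mice given IL-33. Messenger RNA of the subunits does not measure their activity, which is set largely by their release from IκB.

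A pair of tumors stood apart from the rest before any comparison. IL-33 replicate 7 had 1545 CPM (counts scaled by the tumor's total count) summed over 6 uterus and oviduct genes, led by Ovgp1, while the other 15 tumors had at most 26.7 CPM. Its sum over 7 ovary genes was 1017 CPM, against at most 7.97 CPM elsewhere. Its endothelial and fibroblast sums, 774 and 14253 CPM, were also the highest of the 16. Vehicle replicate 4 had the lowest TMM scaling factor, 0.640, and fewer counts on long and AT-rich transcripts. Relative to the other vehicle tumors, the median log2 difference in CPM there was 0.38 for the quintile of genes with the shortest transcripts and −1.50 for the quintile with the longest. By GC content it was −1.25 in the lowest quintile and −0.11 in the highest. The difference was −3.09 for Rel, −2.69 for Icam1, −2.67 for Tnf and −1.78 for Nfkb1, while Nfkb2, Rela and Relb were at 0.03, 0.31 and 0.36. In IL-33 replicate 7 the log2 difference from the other IL-33 tumors was 2.31 for Icam1, −1.47 for Tnf, −1.04 for Tnfaip3 and −0.95 for Nfkb2. The part of transcript length, GC content or tissue makeup in the values of these tumors was not tested. The log2 fold changes of the 10 genes are therefore given with and without IL-33 replicate 7. Counts of genes and most correlations are also given without both tumors, an alternative chosen after the data had been seen.

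The label of the tissue was checked against 6 epithelial genes. Krt8, the most abundant of them, lay between 181 and 975 CPM and Krt19 between 44.5 and 690 CPM in all 16 tumors. The other 4 defining genes were near 0 outside IL-33 replicate 7, with at most 2.40 CPM of Epcam, 3.01 CPM of Cdh1, 1.83 CPM of Krt18 and 0.468 CPM of Cldn7. In IL-33 replicate 7 these 4 genes had 98.8, 104, 159 and 34.9 CPM. Il1rl1, the gene of ST2, lay between 395 and 1318 CPM in the 15 other tumors and was 37.1 CPM in IL-33 replicate 7.

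Scaled to the length of the annotated exons, transcripts of Nfkbia, Nfkb2 and Rela were the most abundant, and those of Tnf and Rel the least. The mean over 16 tumors was 41.8 ± 9.72 CPM per kilobase (SD) for Nfkbia, 33.9 ± 7.26 for Nfkb2 and 30.7 ± 4.52 for Rela. Nfkb1 followed with 11.02 ± 2.65 and Relb with 9.99 ± 2.69. Icam1 had 5.37 ± 4.91, Birc3 3.79 ± 1.39, Tnfaip3 3.53 ± 1.18, Tnf 1.40 ± 1.46 and Rel 1.33 ± 0.570 CPM per kilobase. Per kilobase, Rela exceeded Nfkb1 in all 16 tumors, Relb exceeded Icam1 in 15, Tnfaip3 exceeded Tnf in 14, and Nfkbia exceeded Nfkb2 and Nfkb2 exceeded Rela in 13 each. The order of other neighbours was less fixed, with Nfkb1 above Relb in 12 tumors, Birc3 above Tnfaip3 in 11, Icam1 above Birc3 in 8 and Tnf above Rel in 5. The order also depended on the length used. With the longest transcript in place of all exons, Nfkb1 had 32.0 ± 7.70 CPM per kilobase beside 34.8 ± 5.11 for Rela, and Rela exceeded Nfkb1 in 7 tumors, Nfkbia exceeded Nfkb2 in 8 and Relb exceeded Icam1 in 12. Relative to the mean, the spread between tumors was widest for Tnf and Icam1 and narrowest for Rela.

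None of the 10 genes passed the test between the groups after adjustment, and their levels overlapped between the groups. In edgeR's quasi-likelihood test 0 of the 10 genes had an adjusted p under 0.05, as did 0 of the 16817 genes tested (0%), and the smallest adjusted p among the 10 was 0.451. At an unadjusted p under 0.05 the count was also 0 of 10, beside 1876 genes of all tested (11.2%), 1680 of them higher in the IL-33 treatment group (9.99%). DESeq2 gave 0 of 10 at an adjusted p and 1 of 10, Birc3, at an unadjusted p under 0.05, beside 691 genes (4.11%). Without IL-33 replicate 7 both counts were 0 of 10 in edgeR, beside 651 of 15803 genes (4.12%) at an unadjusted p under 0.05, and without both outlying tumors 0 of 10 beside 659 of 15744 (4.19%). The median log2 fold change of the 10 genes was 0.23 against 0.06 for all genes tested, and 0.27 against −0.01 without IL-33 replicate 7. Without both outlying tumors it was 0.16 against 0.01, and single values lay between −0.08 for Nfkb1 and 0.58 for Tnf.

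**Figure D1:**
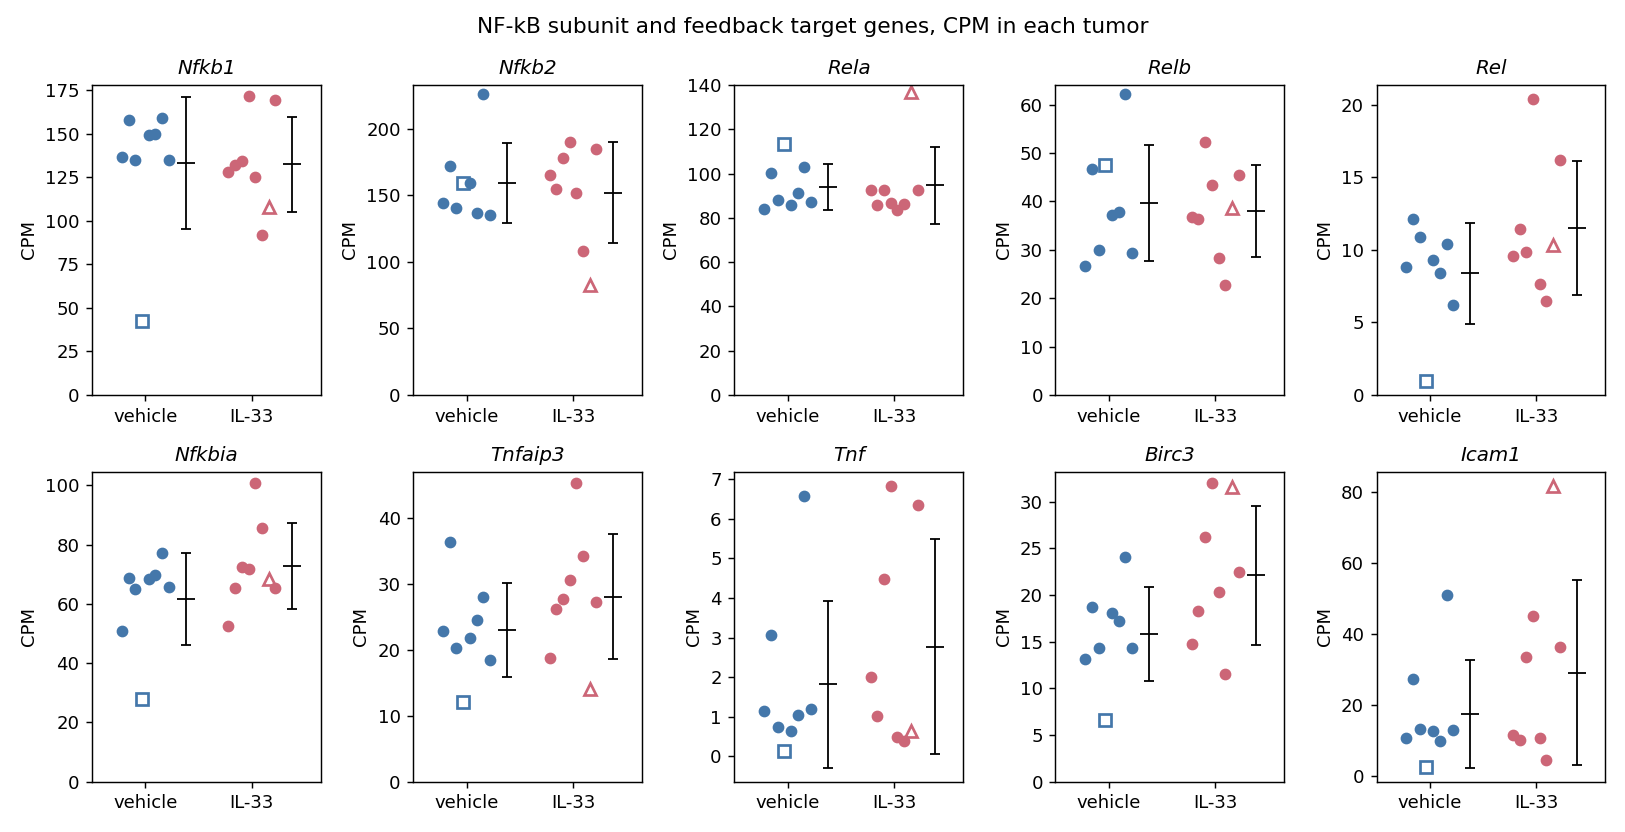
CPM of each of the 10 genes (vertical axis) in the 8 vehicle tumors (blue) and the 8 IL-33 tumors (red), with the mean and SD of each group in black; open symbols mark vehicle replicate 4 (square) and IL-33 replicate 7 (triangle). The groups overlapped for every gene, and vehicle replicate 4 had the lowest Nfkb1, at 42.4 CPM, and IL-33 replicate 7 the highest Icam1, at 81.9 CPM.

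Among the subunits, Rela encodes p65, the main activating partner of canonical dimers. Rela (ENSMUSG00000024927, chromosome 19 of GRCm38 from 5637483 to 5648130) had a lowest, median and highest level of 83.9, 89.8 and 113 CPM in the vehicle group and 83.7, 89.6 and 137 CPM over IL-33 tumors. The highest value of each group was in an outlying tumor, and the other 14 tumors lay within 83.7 and 103 CPM. The log2 fold change was −0.14 (adjusted p = 0.806 in edgeR, standard error 0.15) and −0.18 (standard error 0.15) without IL-33 replicate 7, and its sign was not fixed, at 0.01 with scaling by library size only, 0.03 without vehicle replicate 4 and −0.01 without both outlying tumors. Nfkb1 encodes p105, the precursor of the partner subunit p50. It ranged from 42.4 to 159 CPM with a median of 143 over vehicle tumors, and from 91.9 to 172 CPM with a median of 130 in the IL-33 treatment group. For Nfkb1 the log2 fold change of −0.05 (adjusted p = 0.952 in edgeR, standard error 0.16) was 0.02 without IL-33 replicate 7, −0.15 when vehicle replicate 4, its lowest tumor, was left out and −0.08 without both.

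Nfkb2 and Relb encode p100 and RelB, the pair of the non-canonical arm, and both are themselves NF-κB targets. Nfkb2 had a lowest, median and highest level of 135, 152 and 226 CPM in the vehicle group and 82.5, 160 and 190 CPM in the IL-33 treatment group. Its highest level was in vehicle replicate 7 and its lowest in IL-33 replicate 7, and the log2 fold change was −0.17 (adjusted p = 0.810 in edgeR, standard error 0.19), or −0.06 without the latter and 0.05 without both outlying tumors. Its locus overlaps Psd on the opposite strand, and shared reads cannot be told apart since the strand of the reads is not stated. Relb ranged from 26.6 to 62.1 CPM and from 22.7 to 52.4 CPM in the respective groups (log2 fold change −0.20, standard error 0.21, adjusted p = 0.794 in edgeR). The value for Relb was −0.17 without IL-33 replicate 7, −0.11 without vehicle replicate 7, −0.04 without vehicle replicate 4 and −0.00 without both outlying tumors. Rel encodes c-Rel, a subunit best known from lymphocytes and myeloid cells. Its level had a median of 9.06 CPM in the vehicle group and 10.1 CPM in the IL-33 treatment group, where replicates 4 and 8 reached 20.4 and 16.2 CPM, above the highest vehicle tumor at 12.1 CPM. The log2 fold change of Rel was 0.41 (adjusted p = 0.675 in edgeR, standard error 0.31) and 0.47 without IL-33 replicate 7. It was 0.26 when IL-33 replicate 4 was left out and 0.25 when vehicle replicate 4 was. The vehicle mean of Rel, which vehicle replicate 4 lowers, was exceeded by 6 of 8 tumors in each group.

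Nfkbia encodes IκBα, the inhibitor that is resynthesized first after NF-κB activation. Nfkbia (ENSMUSG00000021025, chromosome 12 from 55489410 to 55492647) had a lowest, median and highest level of 27.8, 67.0 and 77.3 CPM in the vehicle group and 52.7, 70.1 and 101 CPM in the IL-33 treatment group. Tnfaip3 encodes A20, a ubiquitin-editing enzyme that shuts off signaling upstream of IKK. Its lowest, median and highest levels were 12.0, 22.3 and 36.3 CPM in the vehicle group and 14.1, 27.5 and 45.4 CPM in the IL-33 treatment group. IL-33 replicates 5 and 6 had the highest Nfkbia of all tumors, 101 and 85.4 CPM (the other 14 tumors had at most 77.3 CPM), and replicate 5 also the highest Tnfaip3. The log2 fold change was 0.20 (adjusted p = 0.700 in edgeR, standard error 0.16) for Nfkbia. Vehicle replicate 4 lowers the vehicle mean of Nfkbia, and 7 of 8 IL-33 tumors and 6 of 8 vehicle tumors exceeded it. For Tnfaip3 it was 0.25 (adjusted p = 0.743 in edgeR, standard error 0.23), and 6 of 8 IL-33 tumors and 3 of 8 vehicle tumors exceeded the vehicle mean. Without IL-33 replicate 7 these values were 0.25 and 0.37, and without IL-33 replicate 5 they were 0.10 and 0.10. Without IL-33 replicate 6 they were 0.12 and 0.17.

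Tnf, the gene of the inflammatory cytokine TNF, was low and uneven. It had a lowest, median and highest level of 0.141, 1.09 and 6.57 CPM in the vehicle group and 0.379, 1.51 and 6.84 CPM in the IL-33 treatment group, from 260 and 441 counts in all. The highest tumors were vehicle replicate 7 and IL-33 replicates 3, 4 and 8, followed by vehicle replicate 2 with 3.07 CPM. For Tnf the log2 fold change of 0.57 (adjusted p = 0.832 in edgeR, standard error 0.71) was 0.75 without IL-33 replicate 7. It was 1.23 when vehicle replicate 7 was left out and 0.27 when IL-33 replicate 4 was. Icam1, the gene of an adhesion molecule that binds leukocyte integrins, ranged from 2.48 to 51.0 CPM with a median of 12.9 in the vehicle group. Over IL-33 tumors it ranged from 4.54 to 81.9 CPM with a median of 22.6. The levels left a gap between 13.2 and 27.4 CPM, with vehicle replicates 2 and 7 and IL-33 replicates 3, 4, 7 and 8 above it. The log2 fold change of Icam1 was 0.62 (adjusted p = 0.718 in edgeR, standard error 0.52), 0.29 without IL-33 replicate 7, 0.14 without both outlying tumors and 1.06 (unadjusted p = 0.0484 in edgeR) without vehicle replicate 7.

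Birc3 encodes cIAP2, an inhibitor of apoptosis and ubiquitin ligase in TNF receptor complexes, and came nearest to the threshold of the unadjusted test. Its lowest, median and highest levels were 6.65, 15.8 and 24.1 CPM in the vehicle group and 11.6, 21.4 and 32.0 CPM over IL-33 tumors. The groups overlapped, but 6 of 8 IL-33 tumors exceeded the mean of the vehicle tumors, as 4 of 8 vehicle tumors did, and IL-33 replicates 3, 4 and 7 exceeded the highest of them. Its log2 fold change was 0.40 (standard error 0.19, unadjusted p = 0.0518, adjusted p = 0.451 in edgeR). It was 0.37 (unadjusted p = 0.0783) without IL-33 replicate 7 and 0.30 (unadjusted p = 0.131) without both outlying tumors, and DESeq2 gave an unadjusted p of 0.0388 with all tumors. With each of the 16 tumors left out in turn, the unadjusted p was under 0.05 in 5 fits, those without vehicle replicates 2, 5 or 7 or IL-33 replicates 1 or 6.

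The other genes of the pathway were taken from 8 lists of 73 genes, of which 72 passed the count filter and Ccl20 did not. None had an adjusted p under 0.05 in edgeR or in DESeq2, and 5 of 72 (6.94%) had an unadjusted p under 0.05 in edgeR, all higher in the IL-33 treatment group. That share was below the 11.2% of all genes tested, and below the 9.99% that were higher. Without IL-33 replicate 7 it was again 5 of 72, beside 4.12% of all genes. Without both outlying tumors it was 6 of 72 (8.33%) beside 4.19%, and DESeq2 gave 8 of 72 (11.1%) beside 4.11%. The median log2 fold change of the 72 genes was 0.06, as it was for all genes tested, and 0.10 against −0.01 without IL-33 replicate 7. The standing of this share against all genes depended on the tumors and the tool. Map3k8, the kinase TPL2 that p105 holds inactive, averaged 6.49 ± 2.29 CPM (SD, n = 8) over vehicle tumors and 10.3 ± 2.59 CPM (SD, n = 8) over IL-33 tumors. Its log2 fold change was 0.61 (standard error 0.20, unadjusted p = 0.00821, adjusted p = 0.418 in edgeR), and 8 of 8 IL-33 tumors and 2 of 8 vehicle tumors exceeded the vehicle mean. Zc3h12a, the ribonuclease Regnase-1 that degrades inflammatory messenger RNA, had a log2 fold change of 0.50 (unadjusted p = 0.0130 in edgeR), and 8 of 8 IL-33 tumors and 4 of 8 vehicle tumors exceeded the vehicle mean. Birc2, the gene of cIAP1 and neighbour of Birc3 in the genome, had 0.40 (unadjusted p = 0.0153), but its highest level, 49.3 CPM, was in IL-33 replicate 7, and the value without it was 0.30, or 0.23 without both outlying tumors. The log2 fold change was 0.39 (unadjusted p = 0.0471) for Nfkbiz, which encodes the nuclear inhibitor IκBζ, and 0.24 (unadjusted p = 0.0421) for Tnfrsf1b, which encodes TNF receptor 2. With 1 tumor left out at a time, Map3k8, Zc3h12a and Birc2 had an unadjusted p under 0.05 in 16 of 16 fits, Tnfrsf1b in 7 (highest p 0.101) and Nfkbiz in 5 (highest p 0.102). For Nfkbiz the unadjusted p was 0.0869 when vehicle replicate 4 was left out and 0.00321 when IL-33 replicate 7 was.

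By role, the IκB family list had a median log2 fold change of 0.17 over 5 genes, 0.22 without IL-33 replicate 7 and 0.21 without both outlying tumors. Its most abundant gene per exon length, Nfkbib, averaged 45.2 ± 11.6 CPM (SD, n = 8) over vehicle tumors and 41.2 ± 10.1 CPM (SD, n = 8) over IL-33 tumors. The log2 fold change of Nfkbib was −0.29, but −0.01 without vehicle replicate 4, −0.19 without IL-33 replicate 7 and 0.09 without both. Of 11 genes of the IKK complex and its upstream kinases, 9 had a positive log2 fold change, beside 9805 of all 16817 genes tested. The median of the 11 genes was 0.08, or 0.11 without IL-33 replicate 7 and 0.08 without both. Tab2, the most abundant, had 0.03 (0.00 without both), with −0.05 to 0.08 when 1 tumor at a time was left out.

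The 8 genes from the IL-33 receptor to TRAF6 had a median of 0.00, or 0.05 without IL-33 replicate 7 and −0.01 without both outlying tumors. Il1rl1 there had −0.33 (adjusted p = 0.838 in edgeR, standard error 0.42) and −0.15 without IL-33 replicate 7, as without both. Irak3, an IRAK family inhibitor, had the largest log2 fold change of the list, 0.40, which was 0.20 when IL-33 replicate 7 was left out, 0.04 without both outlying tumors and 0.63 when vehicle replicate 7 was left out. The TNF receptor family list had a median of −0.08 over 10 genes, −0.06 without IL-33 replicate 7 and 0.05 without both. Tnfrsf1a, the gene of TNF receptor 1, had 0.10, or −0.01 without IL-33 replicate 7 and 0.00 without both. The 10 negative feedback genes had a median of 0.03, or 0.11 without IL-33 replicate 7 and 0.06 without both. Traf1 among them had 0.50 (0.54 without IL-33 replicate 7), between 0.32 and 0.71 when 1 tumor at a time was left out (unadjusted p = 0.0456 for the latter, without vehicle replicate 7). Rnf11, the most abundant, had −0.12, or −0.04 without IL-33 replicate 7 and −0.05 without both.

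The medians of the target lists depended on the outlying tumors. The 8 chemokine genes tested had a median log2 fold change of 0.03, with 4 of 8 positive. Without IL-33 replicate 7 the median was 0.21 with 7 of 8 positive, and without both outlying tumors 0.32 with 8 of 8 positive. Of all genes tested, 9805 of 16817 were positive over all tumors, 7574 of 15803 without IL-33 replicate 7 and 8145 of 15744 without both. Across these 3 edgeR fits no chemokine gene had an unadjusted p under 0.05. Ccl2, the most abundant, had −0.09 (standard error 0.49), or 0.10 when IL-33 replicate 7 was left out and −0.40 when IL-33 replicate 3 was. Ccl5 had 0.64 (adjusted p = 0.658 in edgeR, standard error 0.47) and 0.81 without IL-33 replicate 7. It was 1.08 (unadjusted p = 0.0221) when vehicle replicate 7 was left out and 0.48 when IL-33 replicate 8 was. Ccl5 was at least 14.6 CPM in vehicle replicate 7 and IL-33 replicates 3, 4 and 8, the 4 tumors highest in Tnf, and at most 12.2 CPM elsewhere.

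The 10 cytokine and enzyme genes had a median of 0.06, which was 0.21 without IL-33 replicate 7 and 0.35 without both outlying tumors. Ptgs2, the cyclooxygenase-2 gene, had −0.13 (−0.03 without both), or 0.04 when IL-33 replicate 7 was left out and 0.11 when vehicle replicate 2 was. Il1a, the interleukin-1α gene, had 0.38 (0.50 without IL-33 replicate 7), but 0.03 when IL-33 replicate 8 was left out and 1.10 when vehicle replicate 2 was. The 10 survival and adhesion genes had a median of 0.15, 0.23 without IL-33 replicate 7 and 0.21 without both. Ier3 had 0.11 (0.31 without both), or 0.21 when IL-33 replicate 7 was left out and −0.15 when IL-33 replicate 5 was. Madcam1, which had at most 1.96 CPM in any tumor, had 0.93 (standard error 1.02), or 0.72 without IL-33 replicate 7 and 0.57 without both. It was 0.55 when IL-33 replicate 4 was left out and 2.37 (unadjusted p = 0.0289) when vehicle replicate 2 was.

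Across tumors the 10 genes did not vary as 1 unit. Nfkbia and Tnfaip3, the feedback genes, correlated over the 16 tumors. Over all 16 tumors, 11 of the 45 pairs had a correlation of log2 CPM with an adjusted p under 0.05 (permutation test, two-sided, Benjamini-Hochberg over 45), 9 of them positive. Without both outlying tumors 17 pairs did, all positive, and with scaling by library size only 14 of 45 did over all tumors, also all positive. By Spearman's rho fewer pairs had an adjusted p under 0.05, 6 over all tumors and 9 without both, all positive. For Nfkbia and Tnfaip3, Pearson's r was 0.751 (permutation p = 0.00103, adjusted p = 0.0103) and Spearman's rho 0.700 (permutation p = 0.00311, adjusted p = 0.0293). The value was 0.658 without the 2 tumors farthest from the median of Nfkbia, 0.805 without IL-33 replicate 7 and 0.794 (adjusted p = 0.00591) without both outlying tumors. By rank the relation missed the threshold without both (rho = 0.631, adjusted p = 0.0585). Pearson's r was 0.431 within the vehicle group (0.253 without replicate 4) and 0.871 within the IL-33 treatment group, where replicates 5 and 6 are the high points, and the difference between the groups was not tested. Of 13099 genes with a mean of at least 1 CPM, 9 had a higher r with Nfkbia than Tnfaip3 did (0.0687%), and 108 had a higher r with Tnfaip3 than Nfkbia did (0.824%). Without both outlying tumors these counts were 25 (0.191%) and 24 (0.183%).

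Nfkb2, Relb, Tnf, Birc3 and Icam1 correlated by Pearson's r once both outlying tumors were left out (each of the 10 pairs with an adjusted p under 0.05), and 3 of these pairs also did over all tumors. By rho 8 of the 10 pairs had an adjusted p under 0.05 without both, and Tnf with Birc3 (rho = 0.512, adjusted p = 0.136) and Birc3 with Icam1 (rho = 0.644, adjusted p = 0.0585) did not. These 5 genes were grouped after the values had been seen, and they were not the only ones that correlated. Nfkb2 and Relb had r = 0.703 (permutation p = 0.00288, adjusted p = 0.0162) and rho = 0.853 (permutation p = 6e-05, adjusted p = 0.00270) over all tumors, and r = 0.873 without both outlying tumors, which are also the 2 farthest from the median of Nfkb2. Their r was 0.598 and missed the threshold (adjusted p = 0.0661) without vehicle replicate 4 alone. Birc3 and Icam1 had r = 0.846 (permutation p = 3e-05, adjusted p = 0.00135), rho = 0.744 (permutation p = 0.00132, adjusted p = 0.0236) and r = 0.779 without the 2 tumors farthest from the median of Birc3, or 0.774 without both outlying tumors. Tnf and Icam1 had r = 0.692 (permutation p = 0.00340, adjusted p = 0.0170), rho = 0.588 (permutation p = 0.0192, adjusted p = 0.123) and r = 0.572 without the 2 tumors farthest from the median of Tnf. IL-33 replicate 7 had the highest Icam1 with 0.627 CPM of Tnf, and r was 0.942 without it and 0.927 without both outlying tumors. Without vehicle replicate 4 alone, r of Tnf and Icam1 was 0.618 and missed the threshold (adjusted p = 0.0661). Since Icam1 levels left a gap, its r over all tumors includes the distance between the 6 tumors above and the 10 below, and the part of that distance was not tested. With scaling by library size only, r was 0.759 for Nfkbia and Tnfaip3, 0.608 for Nfkb2 and Relb, 0.911 for Birc3 and Icam1 and 0.730 for Tnf and Icam1. Of the 13099 genes, 8.63% had a higher r with Nfkb2 than Relb did, and 6.32% a higher r with Relb than Nfkb2 did. In the same order these shares were 5.57% and 6.41% for Tnf and Icam1 and 0.191% and 1.4% for Birc3 and Icam1. Without both outlying tumors they were 0.145% and 0.16% for Nfkb2 and Relb and 0.282% and 1.59% for Tnf and Icam1. For Birc3 and Icam1 they were then 1.98% and 8.88%, and for Tnf and Birc3 13.6% and 6.19%.

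Rel correlated with Tnf, Birc3 and Icam1 by Pearson's r both over all tumors and without both outlying tumors. Rel and Tnf had r = 0.669 (permutation p = 0.000490, adjusted p = 0.0103) and rho = 0.685 (permutation p = 0.00486, adjusted p = 0.0365). With Birc3, Rel had r = 0.654 (permutation p = 0.00232, adjusted p = 0.0149) and rho = 0.544 (permutation p = 0.0315, adjusted p = 0.177). With Icam1 it had r = 0.619 (permutation p = 0.00545, adjusted p = 0.0245) and rho = 0.529 (permutation p = 0.0378, adjusted p = 0.189). Without both, r was 0.654, 0.627 and 0.644 (adjusted p = 0.0333, 0.0429 and 0.0387), and none of the 3 passed by rho (adjusted p = 0.0979, 0.0909 and 0.0622). Those with Birc3 and Icam1 rested on the 2 tumors farthest from the median of Rel, vehicle replicate 4 and IL-33 replicate 4, since r was 0.330 and 0.373 without them, against 0.571 for Tnf. Without vehicle replicate 4 alone, Rel and Tnf had r = 0.664 (adjusted p = 0.040). For Rel with Birc3 and with Icam1, r was then 0.530 and 0.474 (adjusted p = 0.127 and 0.163). Of the 13099 genes, 10.8% had a higher r with Rel than Tnf did, 11.7% than Birc3 did and 13.8% than Icam1 did. Without both outlying tumors these shares were 3.47%, 4.66% and 3.87%. With Tnf, Birc3 and Icam1, a higher r than Rel had was found for 6.34%, 4.21% and 9.62%, or 14.7%, 7.86% and 16% without both.

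Nfkb1 correlated with Rel and Tnf over all tumors. With Rel it had r = 0.820 (permutation p = 0.000850, adjusted p = 0.0103) and rho = 0.735 (permutation p = 0.00157, adjusted p = 0.0236), and with Tnf r = 0.685 (permutation p = 0.00175, adjusted p = 0.0131) and rho = 0.703 (permutation p = 0.00325, adjusted p = 0.0293). Neither r passed without vehicle replicate 4 alone, at 0.530 with Rel (adjusted p = 0.128) and 0.615 with Tnf (adjusted p = 0.0661). When both outlying tumors, the 2 farthest from the median of Nfkb1, were left out, r was 0.612 with Rel (adjusted p = 0.0537) and 0.604 with Tnf (adjusted p = 0.0496). In that setting Nfkb1 also correlated with Icam1 (r = 0.702, adjusted p = 0.0179) and Relb (r = 0.629, adjusted p = 0.0429), and of these only Relb passed by rho (0.679, adjusted p = 0.0463). Of the 13099 genes, 2.96% had a higher r with Nfkb1 than Rel did and 10% than Tnf did over all tumors. Without both outlying tumors these shares were 6.92% and 7.37%. With Rel and Tnf, a higher r than Nfkb1 had was found for 2.89% and 5.82%, or 5.36% and 17.7% without both.

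The r of the feedback genes with Tnf and Icam1 was positive within the vehicle group and negative within IL-33 tumors, in 1 case near 0, and the difference between the groups was not tested. Over all tumors the r of Nfkbia was 0.0201 with Tnf and 0.00238 with Icam1 (−0.344 and −0.195 without both outlying tumors), and neither had an adjusted p under 0.05. Within the vehicle group these values were 0.634 and 0.738 (0.333 and 0.463 without replicate 4), and within the IL-33 treatment group −0.445 and −0.567 (−0.696 and −0.466 without replicate 7). The r of Tnfaip3 with Tnf and with Icam1 was 0.703 and 0.648 within the vehicle group (0.651 and 0.585 without replicate 4). Within IL-33 tumors it was −0.0557 and −0.616, or −0.606 and −0.348 when replicate 7 was left out, so the size of these values rested on that tumor.

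Several relations over all tumors rested on the outlying tumors or on the scaling. Nfkb1 and Rela had r = −0.847 (permutation p = 0.00114, adjusted p = 0.0103) with rho = −0.429 (permutation p = 0.0979, adjusted p = 0.353), and r was −0.224 without vehicle replicate 4 and IL-33 replicate 7, the 2 farthest from the median of Nfkb1. Rela and Rel went from −0.846 to −0.297 without both. Within IL-33 tumors without replicate 7, r was −0.869 for Nfkb1 and Rela and −0.833 for Rela and Rel. Within the vehicle group without replicate 4 these values were 0.782 and 0.472, and the difference between the groups was not tested. The r of −0.224 and −0.297 without both thus pools groups with values of opposite sign. With scaling by library size only, and all 16 tumors kept, r was −0.411 (permutation p = 0.0850, adjusted p = 0.166) for Nfkb1 and Rela and −0.279 (permutation p = 0.219, adjusted p = 0.299) for Rela and Rel. Nfkb2 and Icam1 went the other way, from −0.236 to 0.841.

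**Figure D2:**
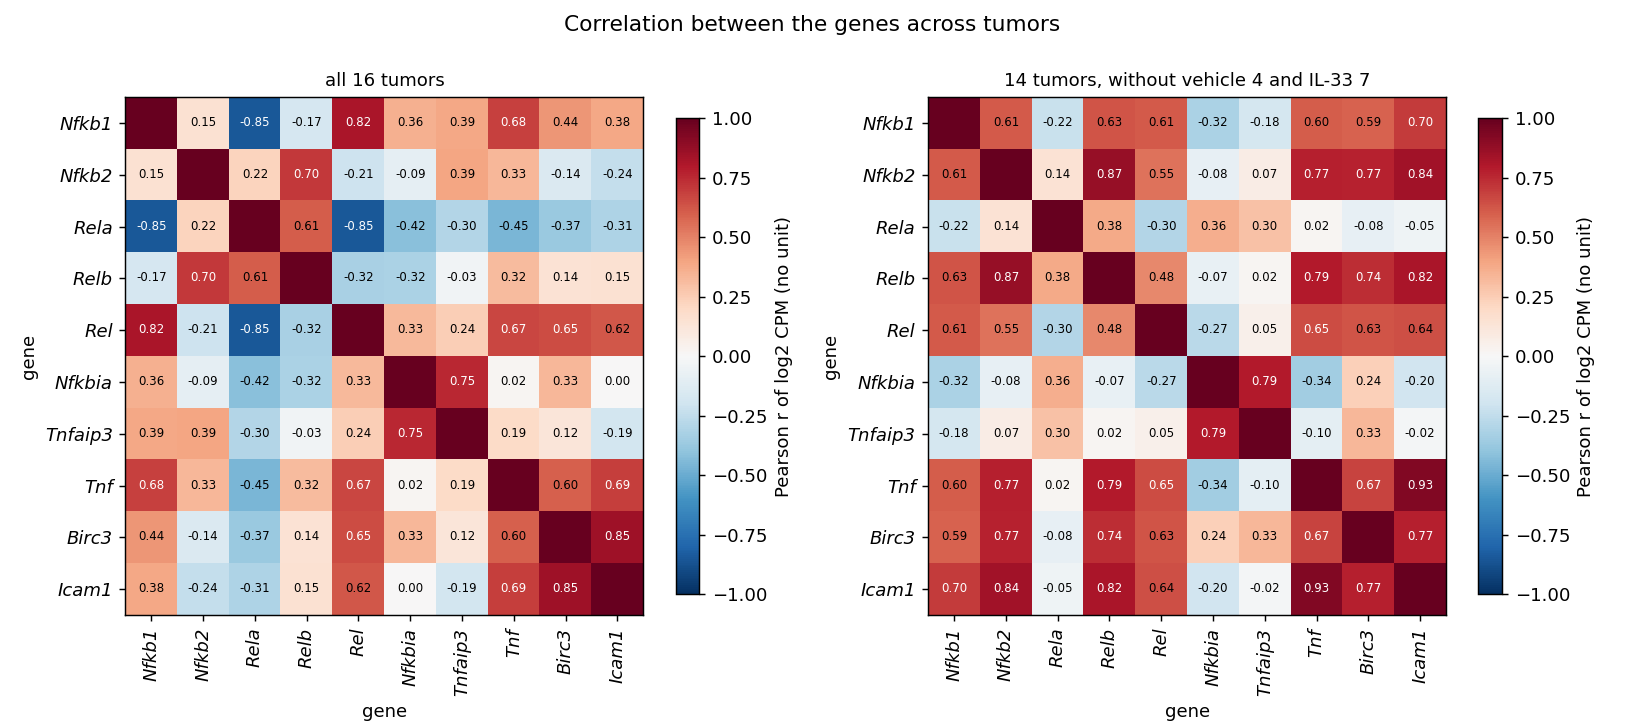
Pearson's r of log2 CPM (color, from −1 to 1) between each pair of the 10 genes, over all 16 tumors (left) and over the 14 tumors without vehicle replicate 4 and IL-33 replicate 7 (right). On the right, r was 0.794 for Nfkbia and Tnfaip3 and −0.344 for Nfkbia and Tnf, while r was positive in every pair of Nfkb1, Nfkb2, Relb, Rel, Tnf, Birc3 and Icam1.

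**Figure D3:**
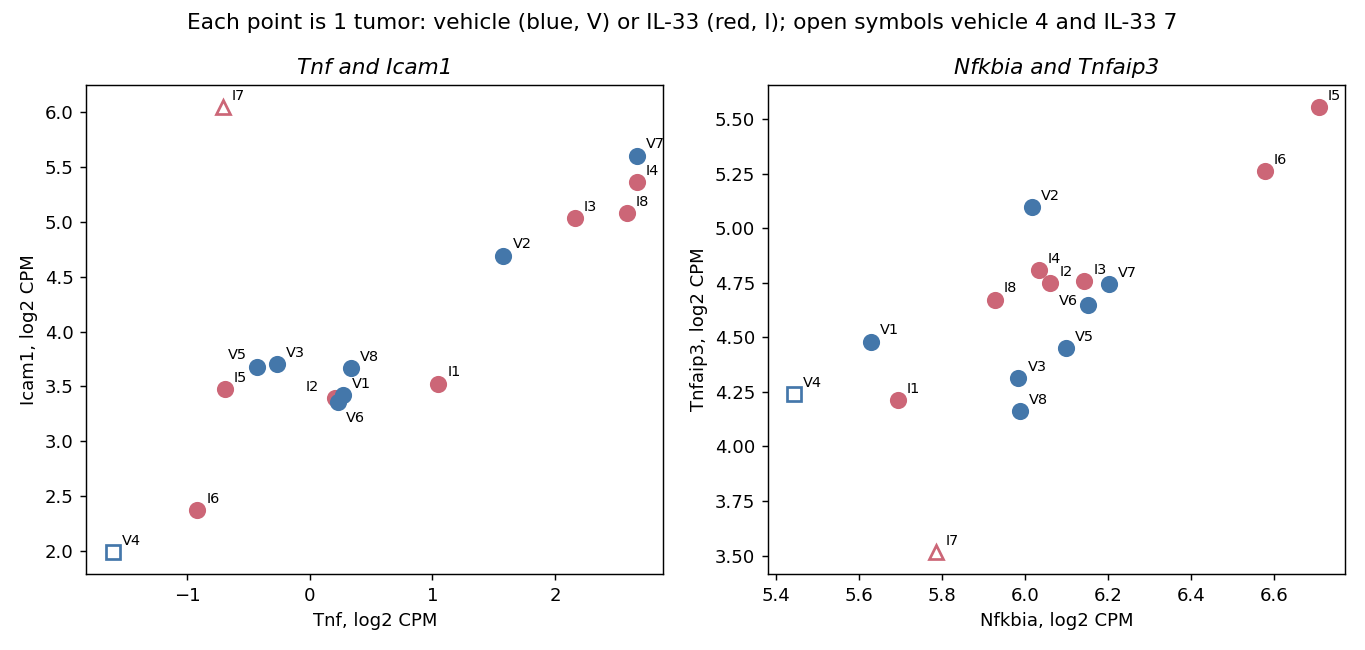
Log2 CPM of Tnf against Icam1 (left) and of Nfkbia against Tnfaip3 (right), each point 1 tumor labeled by group (V vehicle, I IL-33) and replicate, with open symbols for vehicle replicate 4 and IL-33 replicate 7. Tumors of both groups lie at the upper right of the left plot, IL-33 replicate 7 stands alone at its upper left, and IL-33 replicates 5 and 6 lie at the upper right of the right plot.

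In these bulk tumors, more cells of a type and more RNA per cell cannot be told apart, and marker lists of dendritic cells, T cells and macrophages correlated with Tnf, Birc3 or Icam1 over all tumors. The mean log2 CPM of 7 dendritic cell genes, most abundantly Zbtb46, had r = 0.917 with Icam1 over 16 tumors (permutation p = 1e-05, the smallest the resamples can give, adjusted p = 0.00110 over 110 pairs of genes and lists; rho = 0.888, permutation p = 1e-05). It was 0.903 without the 2 tumors farthest from the median of Icam1, 0.939 without both outlying tumors, 0.919 within the vehicle group and 0.909 within the IL-33 treatment group. The list held Flt3, Zbtb46, Xcr1, Clec9a, Cd209a, Ccr7 and Ccl22, and whether any of them is itself an NF-κB target was not tested. Zbtb46 lay between 5.02 and 12.4 CPM outside IL-33 replicate 7, where it was 29.3 CPM. The T cell list of 6 genes, led by Lck, had r = 0.830 with Tnf (permutation p = 0.000140, adjusted p = 0.00587; rho = 0.776, permutation p = 0.000840) and 0.729 without the 2 farthest tumors, or 0.903 without both outlying tumors. The macrophage list of 8 genes, led by C1qa, had r = 0.776 with Icam1 (permutation p = 0.000390, adjusted p = 0.00968; rho = 0.841, permutation p = 9e-05) and 0.692 without the 2 farthest, or 0.800 without both outlying tumors. The blood endothelium list, led by Pecam1, had r = 0.695 with Icam1 (permutation p = 0.000440, adjusted p = 0.00968), 0.517 without the 2 farthest and 0.755 without both outlying tumors. It missed the threshold by rank (rho = 0.662, permutation p = 0.00643, adjusted p = 0.0707) and without IL-33 replicate 7 (r = 0.643, adjusted p = 0.0905), with values of similar size. It passed without vehicle replicate 4 (adjusted p = 0.00220) and without both outlying tumors, by r (adjusted p = 0.0123) and by rho (0.719, adjusted p = 0.0497). In all 7 of the 110 pairs had an adjusted p under 0.05, the others being Icam1 with the T cell list (r = 0.742, and 0.952 without both) and the dendritic cell list with Tnf (0.739 and 0.870) and Birc3 (0.815 and 0.784). By rho 5 of the 7 did, without the dendritic cell list and Tnf (rho = 0.674, adjusted p = 0.0682). The neutrophil list had r = −0.602 with Tnf, −0.494 with Birc3 and −0.609 with Icam1 (adjusted p = 0.0924, 0.178 and 0.0924), or −0.513, −0.231 and −0.486 without both outlying tumors. For the B cell list r was 0.467, 0.577 and 0.645 (adjusted p = 0.204, 0.135 and 0.0862), or 0.646, 0.633 and 0.722 without both. That the B cell list and Icam1 missed the threshold rested on vehicle replicate 4, since the adjusted p was 0.0285 (r = 0.734) without it and 0.0328 without both.

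As many as 19 of the 110 pairs had an adjusted p under 0.05 once both outlying tumors were left out, among them pairs of Nfkb2 and Relb, which had none over all tumors. For Nfkb2, r was 0.790 with the dendritic cell list, 0.828 with the T cell list and 0.809 with the macrophage list (adjusted p = 0.00691, 0.00506 and 0.00797), against 0.00570, 0.396 and 0.0980 over all tumors. For Relb it was 0.800, 0.706 and 0.711 (adjusted p = 0.00819, 0.0344 and 0.0328), against 0.360, 0.504 and 0.395. By rho 3 of these 6 passed: the dendritic cell list with Nfkb2 and with Relb (adjusted p = 0.0250 and 0.0293) and the T cell list with Nfkb2 (adjusted p = 0.0250). In that setting Tnf passed by r with the macrophage list (r = 0.687) and blood endothelium list (r = 0.686), Birc3 with the T cell list (r = 0.742), Relb with the blood endothelium list (r = 0.673) and Rel with the B cell list (r = 0.679), and none of these 5 by rho.

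The summed markers overlapped between the groups. Summed T cell markers lay between 6.72 and 63.2 CPM in the vehicle group and between 3.19 and 55.5 CPM in the IL-33 treatment group, with vehicle replicate 7 and IL-33 replicate 4 highest. Summed macrophage markers lay between 729 and 2140 CPM and between 565 and 1878 CPM. The B cell list was highest in vehicle replicate 2, at 73.9 CPM, and the neutrophil list in vehicle replicate 4, at 496 CPM. IL-33 replicate 6 was the lowest tumor for the T cell and macrophage lists and, after vehicle replicate 4, for the dendritic cell list, Tnf and Icam1, while its Nfkbia was exceeded only in IL-33 replicate 5. IL-33 replicate 6 had the highest Msln, 1243 CPM, which made up most of its summed mesothelium markers (1251 CPM). The other 4 genes of that list summed to 7.52 CPM there and were highest in IL-33 replicate 7, at 229 CPM. Which cells carried the transcripts, and the part of cell makeup in these relations, was not tested.

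Among 13099 genes other than the 10, those most like the 10 by mean r over the 16 tumors were Gsap (0.447), Ctla4 (0.445), Evi2b (0.441), Fgr (0.441) and Cd274 (0.437). Without both outlying tumors 0 of these 5 were among the 5 most like, which were Acvrl1 (0.592), Mgat4a (0.589), Cd83 (0.585), Slc15a3 (0.582) and Stxbp2 (0.578). The first 5 were then close behind, at 0.572, 0.561, 0.542, 0.564 and 0.543 in the order given. For single genes the closest partners were Lacc1 for Nfkb1 (r = 0.973), Ruvbl1 for Nfkb2 (0.956), Ndufa6 for Rela (0.960), Coprs for Relb (0.936) and Stk4 for Rel (0.944). Klf10 was closest to Nfkbia (0.837), Wsb1 to Tnfaip3 (0.950), Gpr65 to Tnf (0.945), Fgl2 to Birc3 (0.907) and Fli1 to Icam1 (0.969). Without both outlying tumors another gene was closest for 9 of the 10, all but Tnfaip3: Stat5b for Nfkb1, Traf2, a gene of the pathway lists, for Nfkb2, Abhd1 for Rela, Tspan14 for Relb, Notch1 for Rel, Pfkfb3 for Nfkbia, Srsf7 for Tnf, Tnfrsf14 for Birc3 and Myo1f for Icam1. The r of the first 10 partners then lay between 0.709 for Ndufa6 with Rela and 0.972 for Fli1 with Icam1. The closest partners thus depended on the tumors kept, and the values are the highest of 13099 for each gene and carry no test.

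The promoters of the 10 genes were searched for forms of the κB motif in RefSeq sequence (GRCm38.p6, 250 bases before to 50 after each start). The motifs were GGGANNTTC and GGGGNTTCC, on both strands. Promoters were found for 8 of the 10 genes, 11 in all, and not for Nfkb1 and Relb. A match was present in 4 of the 11, from Nfkb2, Nfkbia and Tnf, each to the first motif, against 5.57% of all 32851 promoters for either motif. The promoters of Nfkbia and Tnfaip3 and those of Tnf and Icam1 are shown since each pair correlated over the 16 tumors, and Nfkb2 since it held the most matches. Of the 3 promoters of Nfkb2 the one with 3 matches is shown, while the others had 0 and 1, and the 1 match is shared with the promoter shown where they overlap. Tnfaip3 had 2 promoters, both without a match, and 1 is shown. Capitals mark matches. A match describes letters in this window only. Both motifs have 9 letters, and longer or other forms of the κB site were not sought. A promoter without a match can thus still hold such a form.
Nfkbia, chr12:55492598-55492897, minus strand: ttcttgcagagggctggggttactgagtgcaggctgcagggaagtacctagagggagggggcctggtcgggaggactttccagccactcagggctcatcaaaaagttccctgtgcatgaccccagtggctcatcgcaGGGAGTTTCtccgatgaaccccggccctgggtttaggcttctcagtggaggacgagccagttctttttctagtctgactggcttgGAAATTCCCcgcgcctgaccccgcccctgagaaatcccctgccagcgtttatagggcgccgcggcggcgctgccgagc
Tnfaip3, chr10:19015361-19015660, minus strand: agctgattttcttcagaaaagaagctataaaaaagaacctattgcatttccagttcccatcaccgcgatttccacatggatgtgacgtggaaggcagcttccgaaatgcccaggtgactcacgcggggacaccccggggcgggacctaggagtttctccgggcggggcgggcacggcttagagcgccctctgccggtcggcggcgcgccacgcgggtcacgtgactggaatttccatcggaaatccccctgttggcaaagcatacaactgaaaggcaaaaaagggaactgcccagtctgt
Nfkb2, chr19:46305445-46305744, plus strand: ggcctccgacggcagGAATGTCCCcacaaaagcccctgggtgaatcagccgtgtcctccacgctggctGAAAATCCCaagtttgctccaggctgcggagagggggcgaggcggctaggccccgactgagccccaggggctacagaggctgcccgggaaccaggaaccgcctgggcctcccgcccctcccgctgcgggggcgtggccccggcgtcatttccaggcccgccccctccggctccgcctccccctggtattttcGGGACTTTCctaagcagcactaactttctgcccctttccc
Tnf, chr17:35201958-35202257, minus strand: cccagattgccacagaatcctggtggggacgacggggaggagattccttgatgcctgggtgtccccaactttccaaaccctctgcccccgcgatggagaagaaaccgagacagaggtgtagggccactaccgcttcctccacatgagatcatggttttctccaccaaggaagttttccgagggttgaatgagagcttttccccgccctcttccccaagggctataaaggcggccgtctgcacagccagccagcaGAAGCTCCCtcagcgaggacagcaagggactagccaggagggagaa
Icam1, chr9:21015690-21015989, plus strand: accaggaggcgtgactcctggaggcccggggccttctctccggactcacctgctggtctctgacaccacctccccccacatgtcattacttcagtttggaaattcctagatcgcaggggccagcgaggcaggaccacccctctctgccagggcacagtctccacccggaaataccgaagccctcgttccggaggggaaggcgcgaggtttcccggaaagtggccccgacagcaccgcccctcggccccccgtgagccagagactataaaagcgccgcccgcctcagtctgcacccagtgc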

How the data were processed

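A company sequenced polyadenylated RNA of 16 tumors. The authors deposited raw counts of reads per gene, without normalization; the submitters' processing notes name HISAT2, featureCounts and mm10, while versions, strand and annotation release are not given in the sources used here. Groups and replicate numbers came from the sample labels, and replicate numbers were not used as a block. Symbols, exon lengths and coordinates came from GENCODE M21 (GRCm38). CPM values are counts scaled by a tumor's total count. The 16817 genes with at least 10 counts over all tumors were tested with edgeR 4.0.16 (R 4.3.3, TMM, quasi-likelihood, Benjamini-Hochberg). DESeq2 1.42.0 was an alternative. Correlations used log2 CPM (TMM, prior count 2) and, as an alternative, library size only, with 100000 permutations in Python 3.11.15 with NumPy 2.4.6. Named genes were the members, pathway genes with an unadjusted p under 0.05, the most abundant and most changed gene of each list, and the closest genes by correlation. The most abundant gene was taken per exon length, a reading settled after values had been seen, as were the removal of both outlying tumors and the longest transcript as a length. Members and lists were chosen with earlier results of these data known.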

Additional observations from a re-analysis of the deposited data

Results flagged for a closer look

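Tumors far from the rest of their group of 8 were sought for the 10 members, 18 named pathway genes and 11 marker sums. Of 78 groups 24 held such a tumor. The rule flags about 1 in 20 groups by chance only where groups are independent and values normally distributed. These groups share tumors and the values are CPM without a log scale, so 24 cannot be read against that rate. The tumor was IL-33 replicate 7 in 8, vehicle replicate 7 in 7, vehicle replicate 4 in 5 and vehicle replicate 2 in 4. No cause was tested.

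Vehicle replicate 4 lay low for Nfkb1 (42.4 CPM), Tab2 (46.6 CPM) and Tnfrsf1a (124 CPM), and high for the summed neutrophil (496 CPM) and epithelium (1546 CPM) markers. IL-33 replicate 7 lay high for Rela (137 CPM), Birc2 (49.3 CPM), Tnfrsf1a (378 CPM), and the summed markers of dendritic cells (48.2 CPM, of which Zbtb46 was 29.3 CPM; the other 6 genes summed to 18.9 CPM and did not stand apart), blood endothelium (774 CPM), fibroblasts (14253 CPM), uterus and oviduct (1545 CPM) and ovary (1017 CPM).

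Vehicle replicate 7 lay high for Nfkb2 (226 CPM), Tnf (6.57 CPM), Traf1 (13.9 CPM) and Ccl5 (19.9 CPM), and for the summed markers of macrophages (2140 CPM), T cells (63.2 CPM) and blood endothelium (227 CPM). Vehicle replicate 2 lay high for Il1a (1.66 CPM), Ier3 (149 CPM), Madcam1 (1.96 CPM) and the summed B cell markers (73.9 CPM).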

How the results depend on the processing

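The 10 members were fitted under 24 alternatives. In 235 of the 240 fits the log2 fold change kept its sign, and 0 had an adjusted p under 0.05 with edgeR or DESeq2. The sign turned for Nfkb1 without IL-33 replicate 7 in edgeR (0.018) and DESeq2 (0.010), for Nfkb2 without both outlying tumors (0.050), and for Rela with library size only (0.0096) and lacking vehicle replicate 4 (0.026). When 1 tumor at a time was left out, Nfkb1 lay between −0.15 and 0.018 and Rela between −0.18 and 0.026. Genes with an adjusted p under 0.05 numbered 0, except 1 (Alas2, log2 fold change −3.45, named after its values were seen) in DESeq2 without IL-33 replicate 7. Mean Alas2 was 12.8 CPM in the vehicle group and 5.62 CPM in the IL-33 treatment group, a smaller difference than the fitted value. At an unadjusted p under 0.05 there were 1876 genes, 691 with DESeq2, 678 with DESeq2 without IL-33 replicate 7, 642 with filterByExpr, 659 without both outlying tumors, and 651 to 2163 with each tumor left out. Members at an unadjusted p under 0.05 numbered 1 of 10 with DESeq2, beside 4.11% of all genes, and 1 each with filterByExpr and no filter. With each tumor left out they numbered 0 to 2, the latter being Birc3 and Icam1 without vehicle replicate 7. For pathway genes the count was 8 of 72 with DESeq2, beside the same 4.11%, and 3 to 8 with each tumor left out. The other counts of members and pathway genes here were not set against a share of all genes.

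With the replicate number as a block the counts at an unadjusted p under 0.05 were 318 genes and 3 pathway genes, and 0 genes had an adjusted p under 0.05. Same-numbered tumors did not pair: the correlation of their deviations lay between −0.35 and 0.414, over 0.1 for 4 of 8 numbers, and 1 of 8 correlated best with its own number. Other signs turned under alternatives for genes not past the threshold: Nfkbib (0.093 without both outlying tumors), Ier3 (−0.12 with the block), Tnfrsf1a (−0.016), Ccl2 (0.080) and Ptgs2 (0.033) in DESeq2 without IL-33 replicate 7, Ccl2 with library size only (0.0044) and without both outlying tumors (0.11). With each tumor left out, Tab2 lay between −0.048 and 0.085, Tnfrsf1a between −0.0054 and 0.13, Ccl2 between −0.40 and 0.10, Ptgs2 between −0.27 and 0.11 and Ier3 between −0.15 and 0.23.

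Pairs of members with an adjusted p under 0.05 numbered 11, against 6 without vehicle replicate 4, 15 without IL-33 replicate 7 and 17 without both outlying tumors. For members and marker lists the count was 7, against 6 without IL-33 replicate 7, 18 without vehicle replicate 4 and 19 without both. Scaling by library size only gave 14 pairs of members. By rank the counts were 6 and 5, and 9 and 11 without both. Correlations of Icam1 within the tumors above and below the gap in its own levels were computed and are not used, since such a split narrows its range. On the length of the longest transcript Rela exceeded Nfkb1 in 7 of 16 tumors in place of 16. Removing these tumors was chosen after the data had been seen, and the cause of the shifts was not tested. Depth limits mainly Tnf, Il1a and Madcam1, with few counts per tumor.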
